A study of Mus musculus with 18 samples.

Results

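The genes described are 6 whose proteins are measured in urine or blood as biomarkers of kidney injury: Havcr1, which encodes KIM-1, Lcn2, which encodes NGAL, Spp1 (osteopontin), Clu (clusterin), Igfbp7 and Cst3 (cystatin C). They were chosen by name, with earlier results of these data known. All 6 were found among the 20825 genes of the deposited table and passed the filter on low values, as did 14716 genes in all. RNA was sequenced from whole kidney tissue of C57BL/6 mice aged 11 weeks. In the injured groups, called UIR, the pedicle of the right kidney was clamped for 45 min and released and the left kidney was left intact. The controls were sham-operated, and both kinds of mice were killed after 1, 3 or 21 days, with 3 libraries labelled as biological replicates in each of the 6 groups. The labels give neither the sex of the mice nor which kidney was sequenced.

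Each of these proteins is read in the clinic or the laboratory for a different reason. KIM-1 is a phosphatidylserine receptor that injured proximal tubule cells place on their surface and use to take up dying cells, and its outer part is shed into urine. NGAL is a small secreted protein that binds bacterial siderophores and is made by neutrophils as well as by stressed tubule cells. Osteopontin is a secreted phosphoprotein that binds integrins and CD44, and clusterin is a secreted chaperone that binds misfolded proteins and cell debris. IGFBP7 binds insulin-like growth factors weakly and is read together with TIMP-2 in a urine test of cell cycle arrest. Cystatin C is a cysteine protease inhibitor made by nearly all cells, filtered by the glomerulus and taken up by proximal tubule cells, so that its level in blood reflects filtration.

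Levels are FPKM, a read count divided by transcript length and by library size, which makes them relative to all other RNA in a library and to a gene's length. FPKM summed to between 424207 and 549490 per library, and the number of reads behind them is unknown. Defining markers of kidney segments and vessels (Umod, Slc34a1, Aqp2 and Pecam1) were detected in every library. The third UIR library of day 1 stood apart from the other two: its summed level of 10 proximal tubule markers was 1213 FPKM against 3119 and 2435, and that of 8 podocyte markers was 315 FPKM against 136 and 124. The day 1 differences of the 6 genes and the day 1 counts of the gene lists are therefore given with and without it. In bulk tissue, fewer cells of a type and less RNA per cell cannot be told apart.

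The stretches just upstream of 5 of the genes, those matched in the RefSeq table (all but Clu), are shown because 3 of them (Havcr1, Lcn2 and Spp1) were raised on all days and the other two (Igfbp7 and Cst3), as deposited, differed most at day 21. Each is the 250 bases before the RefSeq start site in GRCm38.p6, written 5′ to 3′ on the strand of the gene, with motif matches in capitals. The most upstream start is used for Havcr1, at chr11:46739973-46740222 on the plus strand, and for Spp1, at chr5:104434861-104435110 on the plus strand. Lcn2 lies at chr2:32387740-32387989, Igfbp7 at chr5:77408046-77408295 and Cst3 at chr2:148875513-148875762, all on the minus strand.
Havcr1: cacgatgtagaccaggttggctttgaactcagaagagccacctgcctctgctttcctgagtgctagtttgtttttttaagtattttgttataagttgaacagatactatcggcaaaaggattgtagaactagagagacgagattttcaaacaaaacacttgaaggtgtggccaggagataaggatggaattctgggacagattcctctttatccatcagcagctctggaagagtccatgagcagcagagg
Lcn2: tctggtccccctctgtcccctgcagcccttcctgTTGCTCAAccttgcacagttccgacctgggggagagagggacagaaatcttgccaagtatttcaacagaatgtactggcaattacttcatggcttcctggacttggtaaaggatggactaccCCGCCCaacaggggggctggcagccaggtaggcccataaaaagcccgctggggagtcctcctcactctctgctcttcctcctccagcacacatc
Spp1: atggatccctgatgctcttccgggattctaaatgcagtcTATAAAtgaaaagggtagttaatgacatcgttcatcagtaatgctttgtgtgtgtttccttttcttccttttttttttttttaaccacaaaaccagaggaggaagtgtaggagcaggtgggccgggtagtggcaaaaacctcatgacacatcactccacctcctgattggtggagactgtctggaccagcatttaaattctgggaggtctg
Igfbp7: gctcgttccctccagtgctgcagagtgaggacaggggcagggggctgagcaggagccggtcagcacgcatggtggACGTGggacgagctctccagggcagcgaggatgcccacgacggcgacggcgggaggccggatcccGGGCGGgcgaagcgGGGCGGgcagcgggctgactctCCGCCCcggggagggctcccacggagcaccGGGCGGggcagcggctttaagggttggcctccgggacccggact
Cst3: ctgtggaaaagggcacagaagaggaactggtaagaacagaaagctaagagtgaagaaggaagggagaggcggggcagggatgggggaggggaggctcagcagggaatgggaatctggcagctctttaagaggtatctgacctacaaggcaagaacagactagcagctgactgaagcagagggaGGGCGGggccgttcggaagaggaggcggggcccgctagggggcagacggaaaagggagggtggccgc

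A total of 8 motifs were searched on both strands, and their share is given among 32851 such windows of 27025 genes. They were AP-1 (TGANTCA, in 6.75% of windows), STAT (TTCNNNGAA, 7.02%), C/EBP (TTGCNNAA, 9.56%), heat shock (GAANNTTC, 6.69%), hypoxia (ACGTG, 16.6%), Sp (GGGCGG, 32.7%), the TATA box (letters TATAAA, 12.4%) and NF-kappaB (3.90%). The Lcn2 window held the C/EBP letters TTGCTCAA at 216 to 209 bases before the start and the Sp letters on the reverse strand at 94 to 89 bases. The Spp1 window held the TATA letters, at 211 to 206 bases, and the Havcr1 window held none of the motifs. The Igfbp7 window held 4 Sp matches and 1 hypoxia match, and its GC content of 74.0% was above that of 95.1% of windows, whereas Havcr1 (43.2%) and Spp1 (43.6%) lay below the median of 52.4%. The Cst3 window had 59.6% GC and 1 Sp match. No matches overlapped in these windows. The matches are letters only, and none of these data measured binding at them.

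After clamping, 5 of the 6 genes were higher than in sham at day 1, 4 at day 3 and 6 at day 21, and none was lower, by limma at an adjusted p under 0.05; without the third UIR library the day 1 count was also 5. Changes were widespread in these kidneys: 28.5% of the 14716 genes tested were higher at day 1, 57.6% at day 3 and 60.7% at day 21, and 31.1%, 17.9% and 20.1% were lower. The counts of members are to be read against these shares. The median log2 fold change of the 6 genes on the 3 days was 2.16, 4.03 and 3.29, against -0.03, 0.44 and 0.53 over all genes tested. The UIR and sham libraries did not overlap for 6 of 6 genes at day 1, 4 of 6 at day 3 and 6 of 6 at day 21, which compares with 61.3%, 78.7% and 84.3% of all genes. Havcr1, Lcn2, Spp1 and Clu formed one group, raised at every day, and Igfbp7 and Cst3 another, with their main difference, as deposited, at day 21.

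**Figure D1:**
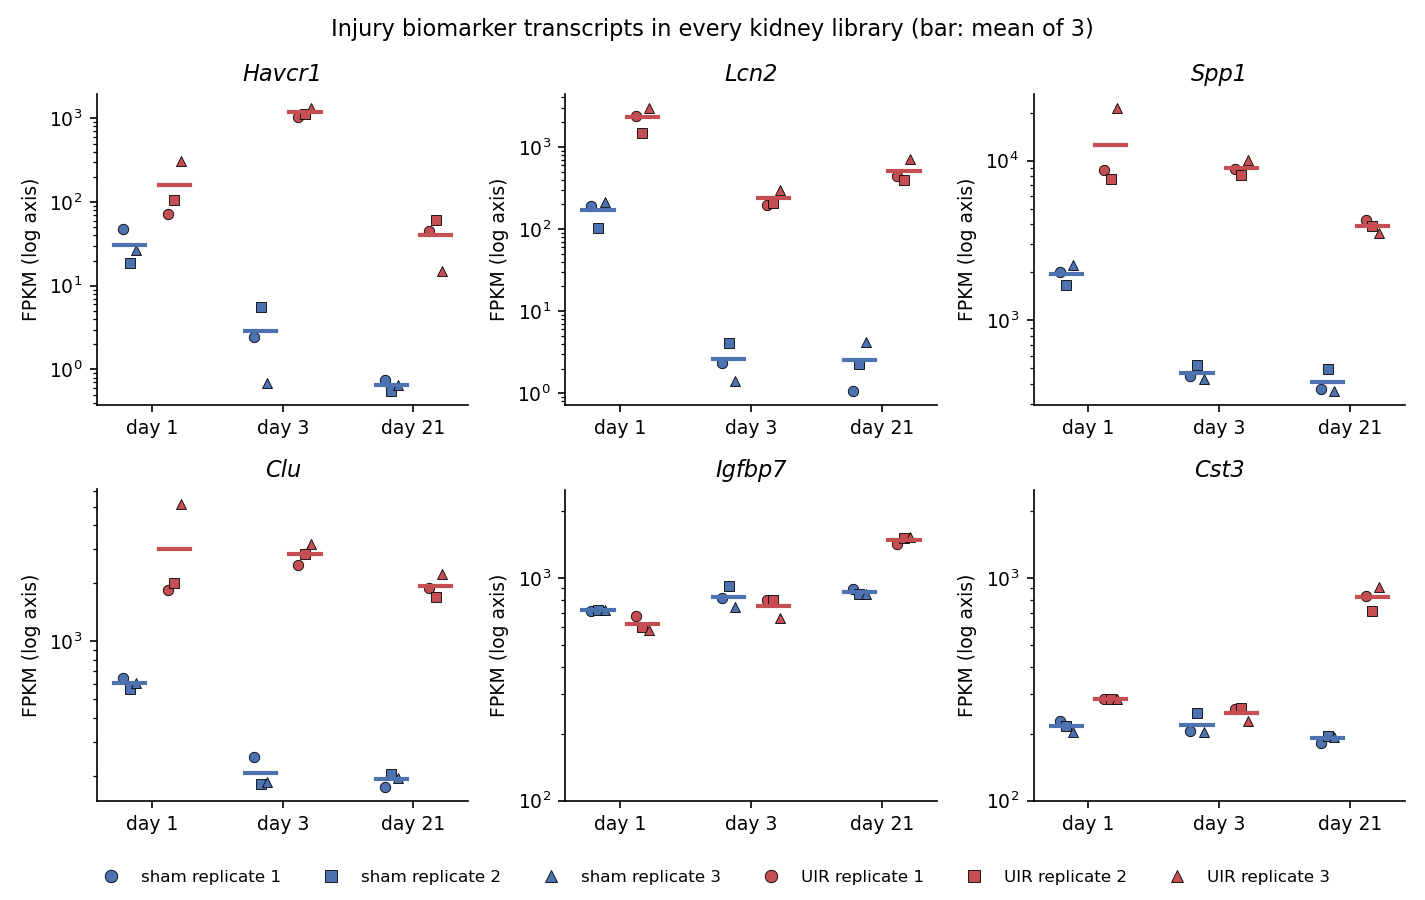
FPKM (log axis) of the 6 biomarker genes in each library (points) with the group mean (line), for sham and UIR at days 1, 3 and 21. Havcr1 rose from single digits in day 3 sham to between 1044 and 1343 in day 3 UIR, while Igfbp7 stayed within 585 and 920 in both day 1 and day 3 groups and reached 1429 to 1528 in day 21 UIR.

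Havcr1 (Entrez gene 171283) had the largest single change of the 6 genes. In sham kidneys it measured 47.3, 18.5 and 26.8 FPKM at day 1, 2.44, 5.54 and 0.69 FPKM at day 3, and 0.74, 0.56 and 0.66 FPKM at day 21. After clamping it measured 71.5, 105.5 and 306.7 FPKM at day 1, 1044, 1140 and 1343 FPKM at day 3, and 45.5, 61.6 and 15.0 FPKM at day 21. The UIR libraries lay above the sham libraries of their own day at each day, and those of day 3 far above all others. The mean was 5.22 times the sham mean at day 1, 407 times at day 3 and 62.3 times at day 21. On the log2(FPKM + 1) scale the difference was 2.17 ± 0.56 (SE, adjusted p = 0.0035 by limma) at day 1, 8.44 ± 0.56 (adjusted p = 1.7e-09) at day 3 and 4.44 ± 0.56 (adjusted p = 1.9e-06) at day 21. Without the third UIR library the day 1 difference was 1.57 (adjusted p = 0.022 by limma). At day 3 Havcr1 ranked between 16 and 26 among all genes by FPKM in the UIR libraries, so the KIM-1 transcript was then among the most abundant in the tissue.

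The course of Havcr1 was a peak. Within the UIR kidneys it rose by 3.13 log2 units from day 1 to day 3 (adjusted p = 0.00015 by limma) and fell by 5.02 from day 3 to day 21 (adjusted p = 1.7e-06). At day 21 it was still above the sham level of that day, but its libraries overlapped those of day 1 sham. Differences between days within UIR passed the threshold for 3 of the 6 genes from day 1 to day 3 (Havcr1, Lcn2 and Igfbp7, the last at 0.27 with an adjusted p of 0.03 by limma that rose to between 0.077 and 0.11 without replicate 2 or 3 of day 1 or replicate 1 or 2 of day 3), for 5 from day 3 to day 21 and for 5 from day 1 to day 21, against 66.5%, 56.2% and 74.3% of all genes tested. From day 1 to day 3 Igfbp7 also did not pass without the filter on low values (adjusted p = 0.068 by limma). With median-of-ratios scaling its sign changed (-0.14, adjusted p = 0.3 by limma). With that scaling Spp1 (-0.74, adjusted p = 0.028) and Cst3 (-0.62, 0.00013) passed as lower, so the count depends on scaling.

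Lcn2 (Entrez gene 16819) had another course, high at once and then again late. In sham it measured 188.2, 101.6 and 215.9 FPKM at day 1, 2.31, 4.05 and 1.40 FPKM at day 3, and 1.08, 2.27 and 4.25 FPKM at day 21. After clamping it measured 2357, 1486 and 3001 FPKM at day 1, 196.6, 208.4 and 302.1 FPKM at day 3, and 445.6, 393.9 and 701.7 FPKM at day 21. All UIR libraries were above those of sham at the same day, while the day 3 UIR range overlapped that of day 1 sham. The UIR mean was 13.5, 91.1 and 203 times the sham mean on the 3 days. The log2 difference from sham was 3.76 ± 0.38 (SE, adjusted p = 4.8e-07 by limma), 6.08 (adjusted p = 7.5e-10) and 7.24 (adjusted p = 7.6e-11) on the 3 days. Without the third UIR library the day 1 difference was 3.54.

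The larger folds at days 3 and 21 went with a lower sham level, while the Lcn2 level in UIR was highest at day 1. Within UIR kidneys Lcn2 fell by 3.24 log2 units from day 1 to day 3 (adjusted p = 1.9e-06 by limma). From day 3 to day 21 it was 1.10 higher (adjusted p = 0.021), a call that ended without the first (adjusted p = 0.069) or second (0.062) UIR library of day 3 or the third of day 21 (0.096). The NGAL level also moved with neutrophil markers at day 1, where 7 of the 8 markers tested were higher than in sham and 1 was lower, with or without the third UIR library. Their summed level was 27.6 to 79.9 FPKM in day 1 sham and 243.7, 238.3 and 126.8 FPKM in the UIR libraries, so that the library with the most Lcn2 had the lowest sum of the 3. At day 3, 4 of the 8 markers were higher and 1 lower, with sums of 12.55 to 15.95 FPKM in sham and 36.5, 31.8 and 21.0 FPKM in UIR. With median-of-ratios scaling that split was 1 higher and 2 lower. The day 3 UIR library with the most Lcn2 again had the lowest sum. At day 21, 5 were higher and 1 lower, with sums of 8.92 to 12.1 FPKM in sham and 31.3, 39.1 and 84.9 FPKM in UIR, and there the library with the most Lcn2 had the highest sum. Over all genes tested, 28.5%, 57.6% and 60.7% were higher at days 1, 3 and 21. The marker counts of days 3 and 21 lay near these shares. Of the 12 neutrophil genes listed, Camp, Ltf, Mpo and Elane did not pass the filter on low values. Mpo and Elane were at 0 in every UIR library of days 3 and 21 and at or below 0.22 FPKM at day 1. Without the third UIR library the marker that was lower at day 1 was Ly6g (-1.08, adjusted p = 3.8e-05 by limma). The part of neutrophils in the Lcn2 level was not tested.

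**Figure D2:**
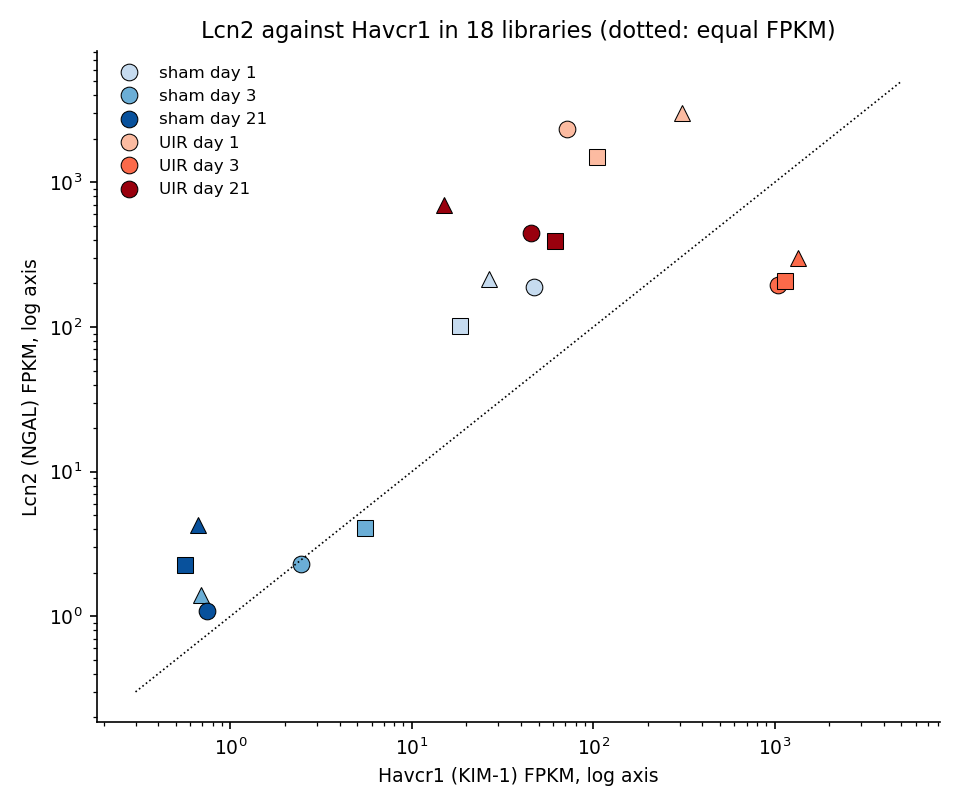
Lcn2 against Havcr1 in each library, both in FPKM on log axes, with colours for the 6 groups and a dotted line where both are equal. The day 3 UIR libraries lie at high Havcr1 with 0.183 to 0.225 FPKM of Lcn2 per FPKM of Havcr1, and the day 1 UIR libraries at high Lcn2 with a ratio between 9.79 and 33.0.

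The ratio of NGAL to KIM-1 transcripts in UIR was lowest at day 3. Lcn2 divided by Havcr1 was 33.0, 14.1 and 9.79 in the day 1 UIR libraries, 0.188, 0.183 and 0.225 at day 3, and 9.80, 6.39 and 46.8 at day 21. The day 3 ratios lay below those of all other groups, sham included, whose lowest value was 0.731, and the ranges of days 1 and 21 overlapped. The clamping effect on Havcr1 was larger at day 3 than at day 1 by 6.27 log2 units (adjusted p = 6.5e-06 by limma) and smaller at day 21 than at day 3 (-4.00, adjusted p = 0.00077). Between days 21 and 1 it differed by 2.28 (adjusted p = 0.018), a call that ended without the first day 1 sham library (1.92, adjusted p = 0.051), the first day 1 UIR library (1.84, 0.054) or the second day 21 UIR library (1.88, 0.053), with median-of-ratios scaling (1.76, 0.06) and with a pseudocount of 5 (0.82, 0.28). For Lcn2 the effect grew by 2.32 from day 1 to day 3 (adjusted p = 0.0014), and its further difference of 1.16 at day 21 did not pass the threshold (adjusted p = 0.088), although it did without the third sham library of day 3 (1.41, adjusted p = 0.048) or of day 21 (1.49, adjusted p = 0.033). It also passed with library weights (1.30, adjusted p = 0.015 by limma) and with a pseudocount of 5 (1.11, 0.043). Such a difference of effects passed the threshold for 62.9% of genes between days 1 and 3, for 46.2% between days 3 and 21 and for 70.4% between days 1 and 21.

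Spp1 (Entrez gene 20750) was the most abundant of the 6 transcripts in every UIR library. In sham it measured 1993, 1667 and 2207 FPKM at day 1, 449.2, 523.4 and 429.1 FPKM at day 3, and 373.1, 496.0 and 362.9 FPKM at day 21. After clamping it measured 8678, 7666 and 21487.5 FPKM at day 1, 8868, 8089 and 10124 FPKM at day 3, and 4277, 3886 and 3500 FPKM at day 21. UIR and sham did not overlap on any day, and the third day 1 UIR library was above all others. In the day 3 UIR libraries Spp1 ranked 1 among all genes by FPKM and made up 2.09% of their summed FPKM on average. The log2 difference from sham was 2.54 ± 0.28 (SE, adjusted p = 1.4e-06 by limma) at day 1, 4.27 (adjusted p = 1.5e-09) at day 3 and 3.25 (adjusted p = 2.2e-08) at day 21. Without the third UIR library the day 1 difference was 2.07.

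From day 1 to day 3 the Spp1 level in UIR kidneys moved by -0.33 log2 units, which did not pass the threshold (adjusted p = 0.32 by limma), by 0.14 without the third day 1 library, by 1.27 with quantile normalization (adjusted p = 0.011) and by -0.74 with median-of-ratios scaling (adjusted p = 0.028), so that its direction is not fixed by these data. It then fell by 1.21 to day 21 (adjusted p = 0.0017). The clamping effect was larger at day 3 than at day 1 by 1.73 (adjusted p = 0.0014 by limma). The day 21 effect differed from that of day 1 by 0.71 (adjusted p = 0.12), or by 1.18 without the third day 1 UIR library (adjusted p = 0.00032), and it also passed with TPM, library weights and quantile normalization. Its change of -1.02 from day 3 to day 21 passed narrowly (adjusted p = 0.047), and did not pass in any of the 12 fits that left out 1 library of day 3 or day 21.

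Clu (Entrez gene 12759), the gene of clusterin, was above sham on each day. In sham it measured 645.0, 566.2 and 605.1 FPKM at day 1, 249.4, 182.3 and 186.5 FPKM at day 3, and 176.0, 205.0 and 194.8 FPKM at day 21. After clamping it measured 1838, 2014 and 5177 FPKM at day 1, 2496, 2833 and 3197 FPKM at day 3, and 1886, 1690 and 2228 FPKM at day 21. The groups were separate on each day. The log2 difference from sham was 2.14 ± 0.28 (SE, adjusted p = 7.1e-06 by limma) at day 1, or 1.67 without the third UIR library, 3.79 (adjusted p = 5e-09) at day 3 and 3.32 (adjusted p = 1.4e-08) at day 21. Within UIR kidneys none of the 3 differences between days passed the threshold: they were 0.08 (adjusted p = 0.82), -0.56 (0.1) and -0.48 (0.13). Without the third day 1 library the first of them was 0.56 (adjusted p = 0.0052 by limma). It was 1.10 with quantile normalization (adjusted p = 0.0014). The second passed with median-of-ratios scaling (-0.66, adjusted p = 0.049), quantile normalization (-0.96, 0.0039) and library weights (-0.60, 0.0034). The last passed with median-of-ratios scaling (-0.99, adjusted p = 0.0036) and without the first day 1 UIR library (-0.75, 0.025). The effect of clamping on Clu was larger at day 3 than at day 1 by 1.64 (adjusted p = 0.0019 by limma) and larger at day 21 than at day 1 by 1.18 (adjusted p = 0.014; 0.51 with median-of-ratios scaling, adjusted p = 0.25), whereas the difference of -0.47 between days 21 and 3 did not pass (adjusted p = 0.35) except with quantile normalization (-0.99, adjusted p = 0.031).

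In sham kidneys too, Havcr1, Lcn2, Spp1 and Clu were higher at day 1 than later. Lcn2 was lower by 5.56 log2 units in sham at day 3 than at day 1 (a difference of -5.56, adjusted p = 3.9e-08 by limma), Havcr1 by 3.14 (-3.14, adjusted p = 0.00034), Spp1 by 2.06 (-2.06, adjusted p = 3.3e-05) and Clu by 1.56 (-1.56, adjusted p = 0.00032). All day 1 sham libraries lay above those of day 3 for these genes. Lower calls between these days were made for 29.7% of all genes tested, and Igfbp7 (0.20) and Cst3 (0.02) did not pass. From day 3 to day 21 none of the 6 genes passed in sham, nor did any reach an unadjusted p under 0.05, and 0.034% of all genes passed by limma. The day 1 folds are therefore measured against a sham level above that of later days. Against the sham libraries of days 3 and 21 in place of those of day 1, the day 1 differences were 5.82 for Havcr1, 9.35 for Lcn2, 4.69 for Spp1 and 3.75 for Clu, and Igfbp7 then passed as lower (-0.44, adjusted p = 0.00033 by limma).

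**Figure D3:**
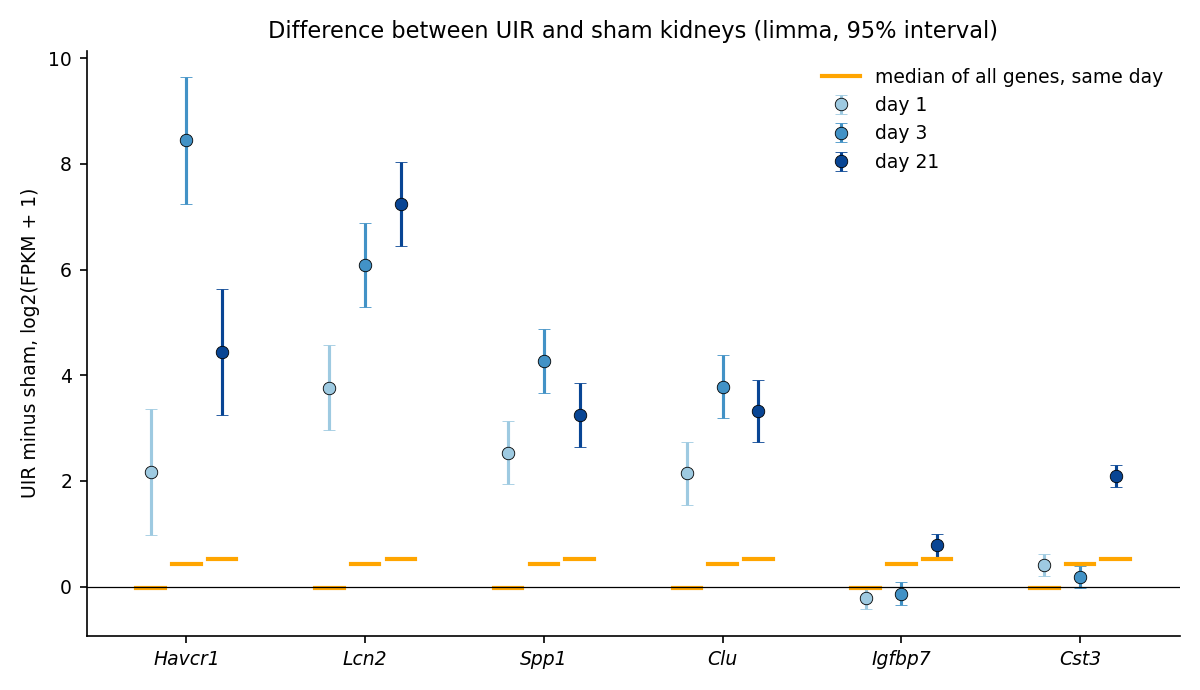
Log2 fold changes of UIR over sham on the log2(FPKM + 1) scale at days 1, 3 and 21 for the 6 genes, with 95% confidence intervals of the limma fit and the median of all genes tested on that day (orange bars). Havcr1 and Lcn2 reach 8.44 at day 3 and 7.24 at day 21, and Igfbp7 and Cst3 lie near 0 until day 21.

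Igfbp7 (Entrez gene 29817) was abundant in all kidneys, and as deposited it passed the threshold at day 21 only. In sham it measured 708.0, 720.6 and 720.5 FPKM at day 1, 814.5, 919.6 and 743.3 FPKM at day 3, and 890.8, 845.4 and 850.5 FPKM at day 21. After clamping it measured 678.5, 603.4 and 584.7 FPKM at day 1, 795.7, 793.1 and 663.7 FPKM at day 3, and 1429, 1509 and 1528 FPKM at day 21. The UIR libraries were just below sham at day 1, overlapped it at day 3 and were well above it at day 21. The log2 difference was -0.21 at day 1 (95% interval -0.42 to 0.01, adjusted p = 0.096 by limma, or -0.16 without the third UIR library, adjusted p = 0.23), -0.14 at day 3 (interval -0.35 to 0.08, adjusted p = 0.24) and 0.79 ± 0.10 (SE, adjusted p = 2.7e-06) at day 21. The effect at day 21 exceeded that at day 3 by 0.92 (adjusted p = 1e-04 by limma) and that at day 1 by 0.99 (adjusted p = 1.7e-05, but 0.33 with median-of-ratios scaling, adjusted p = 0.089).

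The size of these Igfbp7 differences depended on how libraries were scaled. Over all genes tested the median log2 difference from sham was 0.53 at day 21, so relative to that shift Igfbp7 was 0.26 higher. With median-of-ratios scaling, which brings that median to 0.03, the day 21 difference was 0.16 and did not pass (adjusted p = 0.21 by limma), and at day 3 it was -0.67 (adjusted p = 8.2e-05). Without the first day 1 UIR library the day 1 difference was -0.27 (adjusted p = 0.044). With quantile normalization the day 3 difference was 0.28 (adjusted p = 0.028) and the day 21 difference 1.02. The direction of Igfbp7 at day 3 is thus not fixed by these data.

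Timp2, whose product is read with IGFBP7 in the urine test, moved more. It measured 12.7, 16.9 and 18.8 FPKM in UIR at day 1, 43.2, 45.1 and 36.9 FPKM at day 3, and 220.2, 231.8 and 244.1 FPKM at day 21, with all sham libraries between 7.09 and 15.3 FPKM. At day 1 its log2 difference of 0.18 did not pass (adjusted p = 0.36 by limma), and it was 2.03 ± 0.17 (SE, adjusted p = 1.9e-08) at day 3 and 4.18 (adjusted p = 8.7e-12) at day 21. As deposited, both genes were above sham at day 21 and neither passed as higher at day 1, but the Igfbp7 call at day 21 ended with median-of-ratios scaling (0.16, adjusted p = 0.21).

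Cst3 (Entrez gene 13010) likewise had its main difference at day 21. In sham it measured 228.7, 215.9 and 203.6 FPKM at day 1, 206.1, 247.8 and 203.4 FPKM at day 3, and 182.4, 195.3 and 193.5 FPKM at day 21. After clamping it measured 287.6, 286.6 and 285.8 FPKM at day 1, 257.6, 260.5 and 227.6 FPKM at day 3, and 832.3, 713.0 and 916.5 FPKM at day 21. UIR and sham overlapped at day 3 and not on the other days, and the day 21 UIR libraries were far above all others. The log2 difference was 0.41 ± 0.10 (SE, adjusted p = 0.0025 by limma) at day 1, the same to 2 decimals without the third UIR library (adjusted p = 0.0059), 0.18 at day 3 (95% interval -0.03 to 0.40, adjusted p = 0.11) and 2.10 (adjusted p = 3.7e-11) at day 21. The effect at day 21 was larger than at day 3 by 1.91 (adjusted p = 7.2e-08 by limma) and than at day 1 by 1.69 (adjusted p = 6e-08). At day 3 the direction changed with scaling, from 0.61 with quantile normalization (adjusted p = 1.7e-05) to -0.35 with median-of-ratios scaling (adjusted p = 0.0092), and without the second day 3 sham library it was 0.28 (adjusted p = 0.023). At day 21 it passed under all of them, at 1.47 to 2.36.

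**Figure D4:**
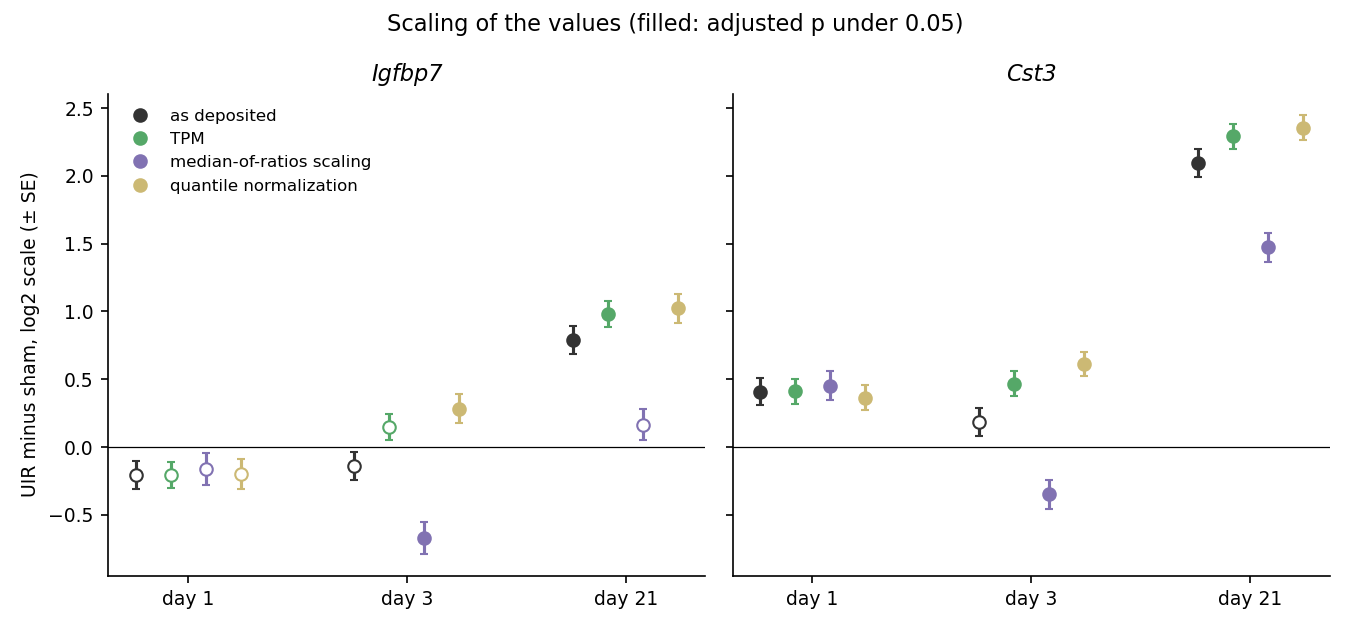
Log2 fold changes of UIR over sham for Igfbp7 and Cst3 at days 1, 3 and 21 under 4 scalings (deposited FPKM, TPM, median of ratios, quantiles), drawn ± SE and filled where the adjusted p is under 0.05. At day 3 both genes lie on either side of 0 depending on the scaling, and at day 21 Cst3 stays at 1.47 or above while Igfbp7 drops to 0.16 with median-of-ratios scaling.

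Ordered by their level, the groups fell into few steps for each gene. For Spp1 and Clu the UIR groups of days 1 and 3 overlapped each other, UIR at day 21 lay above sham at day 1, and sham at days 3 and 21 overlapped at the bottom. UIR at day 21 lay below both other UIR groups for Spp1, and for Clu it lay below day 3 and overlapped day 1. Havcr1 led with UIR at day 3, followed by UIR at day 1, and Lcn2 with UIR at day 1, followed by UIR at day 21. For Cst3 the order was UIR at day 21, UIR at day 1, then the overlapping groups UIR at day 3, sham at day 3 and sham at day 1, with sham at day 21 lowest. For Igfbp7 UIR at day 21 lay above all other groups. UIR at day 1 had the lowest mean but overlapped UIR at day 3, and each of the remaining groups overlapped a neighbour. The 6 genes together made up 0.308% to 0.813% of the summed FPKM in sham libraries, and 2.57% to 6.28% in UIR at day 1, 3.08% to 3.65% at day 3 and 1.95% to 2.06% at day 21.

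Among the 6 genes, Spp1 and Clu followed each other most closely over the 18 libraries, with a Pearson correlation of log2(FPKM + 1) of 0.98. Lcn2 with Spp1 reached 0.933, Havcr1 with Spp1 0.92, and Havcr1 with Lcn2 0.77. Igfbp7 with Cst3 reached 0.797, and Igfbp7 with Havcr1 was at -0.211. These describe libraries that share 6 groups and are not independent points. The highest of the 3 day 1 UIR libraries was the third for Havcr1, Lcn2, Spp1 and Clu, and so was that of day 3. At day 21 the third UIR library was the highest for Lcn2, Clu, Igfbp7 and Cst3 and the lowest for Havcr1 and Spp1.

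By the same correlation, the genes most like each biomarker were named from 9450 genes with a mean of at least 5 FPKM. Among those most like Havcr1 were Lmna (0.971), the gene of lamin A and C, and Pa2g4 (0.969). For Lcn2 they were Ell (0.987), Cdkn1a (0.986), the gene of the cell cycle inhibitor p21, and Rusc2 (0.984). For Spp1 they were Mvp (0.985), Cstb (0.984) and S100a11 (0.983). For Clu they were Arhgdia (0.990), D17H6S56E-5 (0.987) and S100a11 (0.984), which was thus shared with Spp1. For Igfbp7 they were the matrix genes Ogn (0.972) and Fbln7 (0.971) and the thyroid hormone receptor gene Thra (0.960). For Cst3 they were Tnfsf13b (0.974), Tshz2 (0.971) and Ifnar2 (0.970).

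Calls among the binding partners of the biomarkers went in both directions. Of 22 tested receptors, ligands and targets, 9 were higher and 7 lower at day 1 (median log2 fold change 0.21), 13 higher and 4 lower at day 3 (0.53), and 15 higher and 5 lower at day 21 (1.30). Over all genes 28.5%, 57.6% and 60.7% were higher, with medians of -0.03, 0.44 and 0.53, so the day 3 count and median lay near those of all genes. Without the third UIR library the day 1 split was 9 higher and 4 lower. With median-of-ratios scaling the day 3 split was 8 higher and 7 lower. Cd44, an osteopontin receptor, rose most at day 3, from 0.467 ± 0.0551 to 75.9 ± 11.0 FPKM (SD, n = 3), a log2 difference of 5.70 (adjusted p = 2.1e-13 by limma), and was 2.36 and 4.47 higher at days 1 and 21. The integrin genes Itgav and Itgb3, whose products pair to bind osteopontin, were higher on each day, by 1.71 and 0.91 at day 1, 2.15 and 2.08 at day 3, and 1.53 and 1.46 at day 21.

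Of 3 genes for receptors that take up these proteins, Lrp2, Cubn and Slc22a17, all were lower at day 3 and 2 at day 21. Lrp2 encodes megalin, the proximal tubule receptor that takes up NGAL and cystatin C. It measured 147 ± 27.8 FPKM in sham and 41.2 ± 3.89 FPKM in UIR at day 3 (SD, n = 3), a log2 difference of -1.79 (adjusted p = 0.00088 by limma), and was -4.53 (adjusted p = 3.6e-08) at day 21. Its difference of -0.90 at day 1 did not pass (adjusted p = 0.069). Cubn, the gene of the megalin partner cubilin, was lower on all days, at -1.18, -1.23 and -4.32, although with TPM the day 3 value was -0.97 with an adjusted p of 0.05, and without the third UIR library the day 1 value was -0.74 and did not pass (adjusted p = 0.069 by limma). Slc22a17, which encodes an NGAL receptor, was lower at days 1 (-0.45, or -0.22 and not past the threshold without the third UIR library) and 3 (-0.71), and at day 21 stood at 0.00 as deposited but at -0.58 with median-of-ratios scaling.

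Proteases that cystatin C inhibits differed among themselves. Ctss, the gene of cathepsin S, was raised from 7.47 ± 1.56 to 530 ± 92.7 FPKM (SD, n = 3) at day 21, a log2 difference of 5.97 (adjusted p = 1.9e-11 by limma), with 2.64 at day 3 and 0.44 at day 1, which did not pass (adjusted p = 0.17). Ctsc was higher on each day, by 1.52, 2.23 and 3.66. Ctsl was lower at day 1, at -1.32 (adjusted p = 1.4e-07 by limma), and did not pass on the other days as deposited. At day 3 it passed in opposite directions with quantile normalization (0.28) and median-of-ratios scaling (-0.62), and so it did at day 21 (0.48 and -0.52).

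Relatives of the biomarkers were called in both directions. Of 23 relatives listed, 21 had a row and 13 passed the filter. Of these, 3 were higher and 2 lower at day 1 (median 0.06), 7 higher and 3 lower at day 3 (median 0.37, but -0.10 with quantile normalization), and 8 higher and 4 lower at day 21 (1.65). Their shares of higher genes at days 3 and 21 lay near the 57.6% and 60.7% of all genes, whose medians were 0.44 and 0.53. Without the third UIR library the day 1 split was 4 higher and 2 lower. Timd2, a relative of Havcr1, measured 36.4 ± 2.92 FPKM in sham and 3.01 ± 2.17 FPKM in UIR at day 21 (SD, n = 3), a log2 difference of -3.38 (adjusted p = 2.8e-08 by limma), when Havcr1 was 4.44 higher. Havcr2, the gene of the immune receptor TIM-3, was 2.60 higher at day 21 (adjusted p = 3.1e-11). Among the genes of insulin-like growth factor binding proteins, Igfbp2 was the most raised at day 21, from 0.470 ± 0.203 to 63.4 ± 8.79 FPKM (SD, n = 3; log2 difference 5.45, adjusted p = 5.1e-13 by limma), while Igfbp1 (adjusted p = 0.0049), Igfbp3 (-1.28) and Igfbp4 (-1.09) were lower. Cstb, which encodes the intracellular cystatin B, was higher on each day, by 0.76, 1.92 and 1.42.

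Other injury markers were counted in the same way. Of all genes tested, 28.5%, 57.6% and 60.7% were higher and 31.1%, 17.9% and 20.1% lower at days 1, 3 and 21. Their medians were -0.03, 0.44 and 0.53, and the counts below are to be read against these values. Of 18 tested genes (of 20 listed) known to be induced in injured kidney, 9 were higher and 1 lower at day 1 (median log2 fold change 1.11), 13 higher and none lower at day 3 (3.78; 3 were lower with median-of-ratios scaling), and 16 higher and 1 lower at day 21 (2.98). Without the third UIR library the day 1 split was 11 higher and 2 lower. Krt20, a keratin gene, was raised most at day 1, from 17.6 ± 10.8 to 1160 ± 195 FPKM (SD, n = 3; log2 difference 6.17, adjusted p = 3.8e-09 by limma), and by 2.36 at day 21. At day 21 the largest in the list was Timp1, a metalloprotease inhibitor gene, at 5.50 (adjusted p = 1.9e-11), followed by Mmp7 at 4.81, which did not pass at days 1 and 3. Of 14 genes that mark filtered load or tubule function, 9 were lower and none higher at day 1 (median -0.90, with the same counts without the third UIR library), 8 lower and 5 higher at day 3 (-0.80), and 9 lower and 3 higher at day 21 (-0.74). Egf (-4.77) and Calb1 (-5.22), genes of the distal tubule, were much lower at day 21, and B2m, whose product is filtered as cystatin C is, was 2.89 higher (adjusted p = 2.2e-09 by limma).

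Markers of cell types moved beside these genes. Their counts are to be read against the shares of all genes tested, as deposited. Those were 28.5%, 57.6% and 60.7% higher and 31.1%, 17.9% and 20.1% lower at days 1, 3 and 21. The medians of all genes were -0.03, 0.44 and 0.53. Shares of all genes under other scalings are not given here. All 10 proximal tubule markers were lower at days 3 (9 with TPM) and 21, and 5 at day 1 (4 without the third UIR library), with sums of 475 to 658 FPKM in UIR at day 3 against 8191 to 8547 FPKM in sham. Havcr1, which is known from injured proximal tubule, was highest in those same day 3 libraries. At day 21 the proximal tubule sums were 103 to 483 FPKM in UIR against 8017 to 9075 FPKM in sham. Havcr1 measured only 15.0 to 61.6 FPKM in those day 21 UIR libraries. All 12 macrophage markers were higher at days 3 and 21, and 3 were higher and 3 lower at day 1, with or without the third UIR library, with sums of 357 to 865 FPKM at day 3 and 3611 to 5017 FPKM at day 21 against 56 to 142 FPKM in sham of any day. The day 1 macrophage counts lay near the shares of all genes. At day 21 Cst3 was raised under all scalings, and Igfbp7 as deposited but not with median-of-ratios scaling (0.16, adjusted p = 0.21 by limma). On that day 9 of 10 endothelial (7 with median-of-ratios scaling) and 10 of 10 pericyte and fibroblast markers were higher too. So were 8 of 8 podocyte (7 with median-of-ratios scaling) and 8 of 8 lymphocyte markers tested (7 with quantile normalization), with medians of 1.90 and 3.28 against 1.28 for the endothelial list and 3.42 for the pericyte and fibroblast list. The pericyte and fibroblast sums were 1079 to 1175 FPKM in UIR at day 21 and 49 to 110 FPKM in sham. Of 8 thick ascending limb and distal tubule markers, 1 was higher and 3 lower at day 1 (2 and 3 without the third UIR library). At day 3 the split was 1 higher and 5 lower (1 and 3 with TPM), and at day 21 2 and 4 (3 and 4 with TPM). Of 8 collecting duct markers, 4 were higher and 4 lower at day 1 (4 and 3 without that library). At day 3 they were 2 and 3, and at day 21 1 and 5 (1 and 4 with TPM). The part of any of these cell types in the levels of the 6 genes was not tested.

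**Figure D5:**
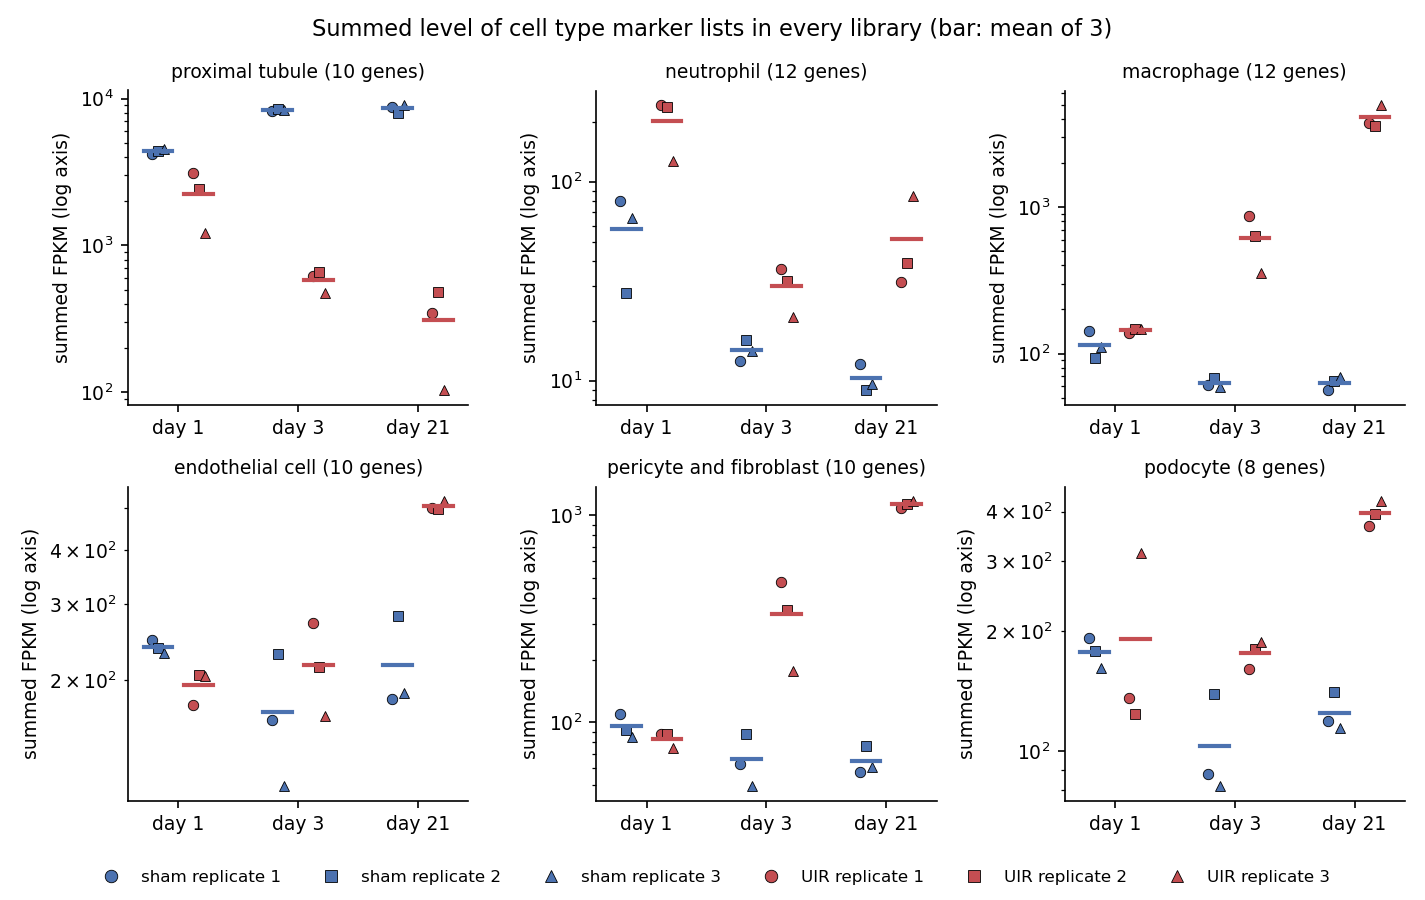
Summed FPKM (log axis) of marker genes of 6 cell types in each library, by group. Proximal tubule sums are lowest in UIR at days 3 and 21, macrophage sums reach 3611 to 5017 FPKM in UIR at day 21, and neutrophil sums are highest in UIR at day 1.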

How the data were processed

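RNA was extracted with Trizol from whole mouse kidney, per the labels' protocols. The authors deposited 1 table of FPKM for 18 libraries, and 2 of its columns do not carry the unit in their name. Per the submitters' processing notes, the build was mm9 and the tools were RSEM 1.2.12, Bowtie2 2.2.5 and HISAT2 2.0.4, whose roles are not given in the sources used here. Read counts were not used here, so the depth behind a value is unknown. A total of 27 gene symbols that had been turned into dates were restored from their Entrez identifiers.

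Genes with at least 1 FPKM in at least 3 libraries (14716 of 20825) were tested with limma 3.58.1 in R 4.3.3 on log2(FPKM + 1), with 1 mean per group, a variance trend and 12 residual degrees of freedom. Fold changes on this scale understate the change of low genes. Adjusted p-values are Benjamini-Hochberg values over all genes tested, and a p under 0.05 passed. With 3 libraries a group, an exact two-sided permutation test has a smallest p of 0.1, so none is given. The p-values measure the spread between libraries that the labels call biological replicates. On simulated data, 67.2%, 65.7% and 61.2% of genes changed 1.5-fold were recovered at days 1, 3 and 21, with 5.1%, 5.7% and 5.2% false among those called. In those simulations 174 to 176 of 14716 genes were called at a day, far fewer than in these kidneys. No shift of all genes was simulated either, so these rates may not hold for the data. The 6 genes and all lists were chosen with earlier results of these data known.

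Named genes were all 6 biomarkers, the 3 genes most correlated with each over 18 libraries (1 of those for Havcr1 is not reported here), up to 4 members of each list with the largest called change at a day, and any receptor, ligand, target or relative with a stated role. Timp2 falls outside that rule at days 1 and 3 and was added as the partner of IGFBP7. Ly6g was added as the neutrophil marker that was lower at day 1. Promoter windows came from a RefSeq table of GRCm38.p6, not the build of the files. Alternatives were other pseudocounts, filters, scalings (TPM, median of ratios, quantile), library weights, no variance trend, a replicate block, a later sham control for day 1 and leaving out each library. Day 1 list counts without the third UIR library were added after seeing the data.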

Additional observations from a re-analysis of the deposited data

Results flagged for a closer look

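For each of the 6 genes the effect of clamping differed between days by a limma test of the difference itself, in 13 of 18 such tests. Over all genes tested such a difference passed for 62.9% between days 1 and 3, 46.2% between days 3 and 21 and 70.4% between days 1 and 21. The count of 13 is to be read against these shares. Values are differences of log2 fold changes. Havcr1 had a larger effect at day 3 than at day 1 by 6.27, a smaller one at day 21 than at day 3 (-4.00), and a larger one at day 21 than at day 1 by 2.28, which did not pass when any of 3 libraries was left out. That last difference also did not pass with median-of-ratios scaling or with a pseudocount of 5. Lcn2 had an effect larger by 2.32 at day 3 and by 3.48 at day 21 than at day 1. Spp1 had an effect larger by 1.73 at day 3 than at day 1 and smaller at day 21 than at day 3 (-1.02, not past the threshold in any fit without 1 library of day 3 or day 21). Clu had an effect larger by 1.64 at day 3 and by 1.18 at day 21 than at day 1. With median-of-ratios scaling the 1.18 was 0.51 and did not pass (adjusted p = 0.25 by limma). Igfbp7 had a larger effect at day 21 than at day 3 (0.92) and day 1 (0.99), and so did Cst3 (1.91 and 1.69). With median-of-ratios scaling the Igfbp7 difference between days 21 and 1 was 0.33 and did not pass (adjusted p = 0.089 by limma). For Havcr1, Lcn2, Spp1 and Clu, the tests against day 1 use a sham level of that day that lay above the sham level of days 3 and 21.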

How the results depend on the processing

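For Havcr1, Lcn2, Spp1 and Clu, all 208 alternative values of the UIR and sham differences on the 3 days kept their direction and stayed past the threshold, with a highest adjusted p of 0.022. Over all 6 genes 301 of 312 such values kept both. With TPM, Igfbp7 at day 3 was 0.15 and Cst3 0.47. Median-of-ratios scaling gave -0.67 and -0.35 at day 3 and 0.16 for Igfbp7 at day 21. Quantile normalization gave 0.28 and 0.61 at day 3. Cst3 at day 3 was 0.28 with library weights. Igfbp7 at day 1 was -0.44 (adjusted p = 0.00033) against the later sham libraries. Leaving out 1 library gave -0.27 to -0.16 for Igfbp7 at day 1 and 0.13 to 0.28 for Cst3 at day 3.

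For comparisons between days, the following changed sign. For the day 3 minus day 1 effect they were 0.059 (TPM) and 0.25 (quantile) for Cst3, and -0.51 (median of ratios) for Igfbp7, which spanned -0.0037 to 0.16 without 1 library. Within sham, day 3 minus day 1, Cst3 was -0.096 with TPM, -0.18 with quantile normalization, -0.013 with library weights, and -0.075 to 0.066 without 1 library. Within sham, day 21 minus day 3, TPM gave 0.0012 for Lcn2 and 0.0019 for Clu, and quantile normalization 0.031 for Clu. Without 1 library, Lcn2 spanned -0.39 to 0.28, Clu -0.17 to 0.055 and Igfbp7 -0.0058 to 0.15. Within UIR, day 3 minus day 1, median-of-ratios scaling gave -0.33 for Clu and -0.14 for Igfbp7, and quantile normalization 1.27 for Spp1 and 0.070 for Cst3. Without 1 library, Clu spanned -0.19 to 0.56 and Spp1 -0.60 to 0.14. Within UIR, day 21 minus day 1, quantile normalization gave 0.25 for Spp1 and 0.14 for Clu. In sham, day 21 minus day 3, 5 genes passed. They were 12 and 2 with pseudocounts of 0.1 and 5, 8 with median-of-ratios scaling, 11 with quantile normalization, 1756 with library weights and 0 to 419 without 1 library. The causes were not tested.

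Scaling moved the share of higher genes among those called at day 3 from 76.3% as deposited to 84.1% with TPM, 51.3% with median of ratios and 51.2% with quantile normalization. At day 21 it moved from 75.2% to 80.2%, 51% and 49.2%. Replicate numbers are shared between groups but did not pair the libraries (correlations of same-numbered deviations between -0.07 and 0.113). With a replicate block 71 of 72 values for the 6 genes were unchanged in call, and the Spp1 difference of -1.02 between days 21 and 3 no longer passed (adjusted p = 0.054). Depth is unknown, so precision at low FPKM cannot be stated.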
